A study of Mus musculus with 12 samples.

Results

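The 9 genes described here were listed for C1q and the classical complement pathway: *C1qa*, *C1qb*, *C1qc*, *C1ra*, *C1s1*, *C2*, *C4a*, *C4b* and *Serping1*. They were picked by their symbols, all 9 of 9 were found among the 28591 genes of the table, and all 9 averaged 10 normalized counts or more and were tested. Libraries were made from the retinal pigment epithelium (RPE) of 6 wild-type mice (WT, C57BL/6J) and 6 mice homozygous for the rd6 allele of *Mfrp* (*Mfrp* rd6/rd6), at 1 mo of age, with the RPE of both eyes pooled in each library. The rd6 allele is carried in every cell of the animal, so that a difference between the genotypes is not tied to loss of MFRP from the RPE itself. The paper lists C57BL/6J and *Mfrp* rd6/J as separate strains and does not mention littermate controls. Differences of strain or colony therefore cannot be told apart from those of the allele. The RPE was taken from the eyecup after removal of the anterior segment and the retina, and no step of sorting cells is described.

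The classical pathway starts when C1q, a hexamer of trimers made of A, B and C chains, binds antibodies, pentraxins or altered cell surfaces. The attached proteases C1r and C1s then cleave C4 and C2, whose fragments form the enzyme that cleaves C3, and the inhibitor SERPING1 (C1 inhibitor) removes C1r and C1s from the complex. In the brain and retina C1q is made mainly by microglia, resident macrophages that also carry the receptors P2RY12, P2RY13 and CX3CR1, while C1r, C1s, C4 and SERPING1 are made by several other cell types as well.

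Values are normalized counts, reads divided by the size factor of the library, over 29218135 to 33152725 counted reads per WT library and 28907262 to 32336530 per rd6 library, and 3 reads correspond to 2.71 to 3.32 normalized counts. *Mfrp* itself ranged from 30132 to 45442 normalized counts among the WT and from 20442 to 29732 among the rd6 libraries, with all 6 rd6 libraries below the WT range. By *Xist* and *Ddx3y*, 2 of the 6 libraries of each genotype came from females. Keratins and the regulator of surface epithelia *Trp63* (6 genes, a list added after their values were seen) summed to 175307 normalized counts in WT replicate 4, 97215 in rd6 replicate 5 and 53019 in rd6 replicate 1, against 8.30 to 17993 in the other libraries. Both with and without those 3 libraries, 7 of the 9 genes were called higher. The sum of the 7 RPE markers lay between 1282410 and 2044870 normalized counts, most of it *Ttr* and *Rgr*, and *Best1* had only 9.33 to 48.7 normalized counts, with 2 of the 7 lower in rd6 (*Lrat*, log2 fold change −0.98, and *Rgr*, −0.88) and 0 higher. In bulk tissue, a change in the number of cells of a type and a change in RNA per cell cannot be told apart.

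The nucleotide sequence bears on what can be counted for a pair of these genes. *C4a* and *C4b* lie close together on mouse chromosome 17 and share 96.1% of 5367 aligned transcript bases, and 16.5% of the 100-base windows of *C4a* occur unchanged in *C4b*. The stretch below is shown because it is the run of 60 bases within 1 coding exon of *C4b* with the most differences between both transcripts. In *C4b* it is chr17:34735430-34735489 of GRCm38 on the − strand, in exon 21. Capitals mark the 13 bases that differ.
C4b: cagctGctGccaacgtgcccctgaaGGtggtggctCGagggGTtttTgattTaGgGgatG
C4a: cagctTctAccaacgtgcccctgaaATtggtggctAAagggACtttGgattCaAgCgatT
Reads that cover such stretches can be assigned to 1 gene, whereas reads from identical windows cannot, so *C4a* and *C4b* are also given as a sum. *C1ra* shares 98.0% of 2429 aligned bases with *C1rb* and *C1s1* 95.9% of 2661 with *C1s2*, so that reads of these genes may also be assigned to the wrong copy. Of the 100-base windows of *C1ra*, 34.5% occur unchanged in *C1rb*, and *C1ra* and *C1rb* summed to 382 to 493 normalized counts in WT and 952 to 1166 in rd6, again without overlap. The 3 C1q chains share 63.3% to 66.7% of bases and no 100-base window.

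The 3 C1q genes are neighbors on chromosome 4 and moved together. The bases upstream of *C1qb* and *C1qc* are shown because both contain the ETS core GAGGAA, or TTCCTC on the reverse strand, a motif of the family that includes the myeloid factor PU.1. The first run is chr4:136886201-136886450 and the second chr4:136893066-136893164 of GRCm38.p6, both on the − strand, with the motif in capitals (sequences from RefSeq).
C1qb: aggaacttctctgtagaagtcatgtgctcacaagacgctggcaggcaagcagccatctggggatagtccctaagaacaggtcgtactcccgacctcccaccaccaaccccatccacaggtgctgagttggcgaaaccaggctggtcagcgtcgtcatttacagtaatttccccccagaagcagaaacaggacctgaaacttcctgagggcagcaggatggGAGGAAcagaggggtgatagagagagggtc
C1qc: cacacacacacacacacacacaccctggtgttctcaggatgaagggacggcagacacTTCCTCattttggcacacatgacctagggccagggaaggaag
The motif lies 30 bases before the RefSeq start of *C1qb* and 193 bases before that of *C1qc*. The *C1qc* run was cut at the GENCODE bound of the gene (136893065), which lies upstream of its RefSeq start. Its last printed base is therefore not next to that start. It was searched on both strands from 250 bases before to 50 bases after each start, and 28.3% of the 32851 windows in RefSeq hold it. Windows were found for 4 of the 9 genes, *C1qb*, *C1qc*, *C1ra* and *C1s1*. *C1ra* had the ETS core and the pair of STAT half-sites TTCNNNGAA (in 8.3% of all windows), both after the start, and *C1s1* had none of the 3 motifs. The interferon-response core GAAANNGAA, in 8.56% of all windows, was in none of these windows. A match of letters does not show that a factor binds.

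Transcripts of all 3 C1q chains were more abundant in every rd6 library than in any WT library, by 13.1- to 17.6-fold on average. The A chain gene *C1qa* was counted at 184, 176, 228, 326, 259 and 450 across WT replicates 1 to 6, and at 2480, 5035, 3249, 6444, 5828 and 5688 across the rd6 replicates, both in normalized counts. *C1qb*, the B chain, had 214, 254, 229, 309, 344 and 629 in WT and 2296, 4492, 2789, 5691, 4938 and 5233 in rd6 RPE. *C1qc*, the C chain, had 219, 215, 184, 328, 242 and 480 in WT and 1883, 3968, 2423, 5185, 4389 and 4364 in rd6 RPE. For all 3 genes rd6 replicates 1 and 3 were the lowest and replicate 4 the highest of the mutants, and WT replicate 6 was the highest of the wild types. The log2 fold changes were 4.14 for *C1qa* (95% interval 3.55 to 4.73, limma q = 4.2e-07), 3.71 for *C1qb* (3.09 to 4.32, limma q = 1.5e-06) and 3.72 for *C1qc* (3.12 to 4.33, limma q = 1.3e-06). WT replicate 6 was also the highest wild type in *Adgre1*, the macrophage antigen F4/80, with 321 normalized counts against 42.3 to 99.1 in the other WT libraries, and in *Aif1* with 108 against 14.8 to 28.2, and the part of these cells in its C1q level was not tested.

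The genes for the C1 proteases had smaller fold changes, with intervals below those of the C1q genes. *C1ra* had normalized counts of 396, 312, 380, 309, 417 and 380 across the WT replicates, against 875, 946, 867, 822, 784 and 772 across the rd6 replicates, with no overlap between the genotypes. Its log2 fold change was 1.21 (95% interval 1.02 to 1.40, limma q = 8.6e-07), a 2.32-fold rise. *C1s1*, which encodes the protease that cleaves C4 and C2, had 453, 425, 462, 465, 509 and 515 in WT and 764, 765, 763, 649, 563 and 743 in rd6 RPE. The ranges did not overlap and q was 0.000356 in limma, but the change was 1.49-fold (log2 fold change 0.58, 95% interval 0.40 to 0.76) and did not reach the log2 change of 0.81 required for a call. An antisense gene, *Gm16567*, overlaps *C1s1*, and strand use in the counting is not given in the sources used here.

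The genes *C4b*, *C4a* and *C2* differed widely in the size of their rise. *C4b*, the gene of complement component C4, had normalized counts of 577, 592, 532, 1269, 562 and 694 across the WT replicates, against 13177, 15787, 13433, 15426, 13876 and 11406 across the rd6 replicates. The lowest rd6 library was thus far above the highest WT library, and the mutants varied little among themselves. The log2 fold change of *C4b* was 4.36 (95% interval 3.97 to 4.76, limma q = 9.5e-09), or 20.5-fold, and it was the largest of the 9 genes. *C4a*, its paralog, whose product is known as sex-limited protein, had 81.9, 61.9, 39.4, 105, 27.7 and 41.6 in WT and 829, 955, 804, 830, 790 and 709 in rd6 RPE. Its log2 fold change was 3.90 (95% interval 3.32 to 4.47, limma q = 5.6e-07). The annotation lists *C4a* as a processed transcript and not as protein-coding, so that its reads are not shown to stand for a substrate of C1s. Counted as a sum, the pair had 764 ± 305 (WT) and 14670 ± 1671 (rd6) normalized counts (SD, n = 6 per genotype), and this rise was 4.33 on the log2 scale (limma q = 9.8e-09). WT replicate 4, the library with the most keratin reads, was the highest wild type for both C4 genes, for *Serping1* and for *C3*, and the part of the keratin-rich tissue in this was not tested. Without the 3 keratin-rich libraries the log2 fold change of *C4b* was 4.56 and that of *C4a* 4.09. *C2*, which supplies the protease part of the C3-cleaving enzyme, had 229, 286, 295, 396, 269 and 369 in WT and 465, 522, 670, 641, 737 and 748 in rd6 RPE. All rd6 libraries were above all WT libraries, with a log2 fold change of 1.04 (95% interval 0.71 to 1.37, limma q = 0.000351), or 2.05-fold. The genes *Gm20547* and *Zbtb12* overlap *C2*, so part of its reads is uncertain.

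*Serping1*, the inhibitor of C1r and C1s, was alone among the 9 in that the genotypes overlapped. Its normalized counts were 866, 850, 914, 1445, 1145 and 997 across the WT replicates and 1097, 949, 970, 472, 680 and 716 across the rd6 replicates. Its log2 fold change of −0.38 was not distinguishable from no change (95% interval −0.80 to 0.05, limma q = 0.192). The 3 rd6 libraries with the least *Serping1*, replicates 4 to 6, were also the 3 with the lowest sum of 8 fibroblast and mural cell markers, 11701 to 14852 normalized counts against 22073 to 23759 in rd6 replicates 1 to 3 and 17405 to 25899 in WT. Of those 8 markers 0 were higher and 1, *Pdgfra*, was lower in rd6 (log2 fold change −0.88). The sum of 6 endothelial markers split the same way, 13718 to 17895 in rd6 replicates 1 to 3 and 7758 to 11687 in rd6 replicates 4 to 6. In WT the endothelial sum was 4726 to 8969, and the part of any of these cells in the *Serping1* values was not tested.

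In all, 7 of the 9 genes were called higher in rd6 at q below 0.05 and a log2 change of at least 0.81, where 4.69% of the 17768 genes tested were, and 0 were called lower, where 2.12% were. For 8 of the 9 every rd6 library was above every WT library, which held for 5.77% of all genes, and for 0 of the 9 every rd6 library was below, against 5.67% of all genes. The median log2 fold change was 3.71 over the 9 genes and 0.0049 over all genes.

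**Figure D1:**
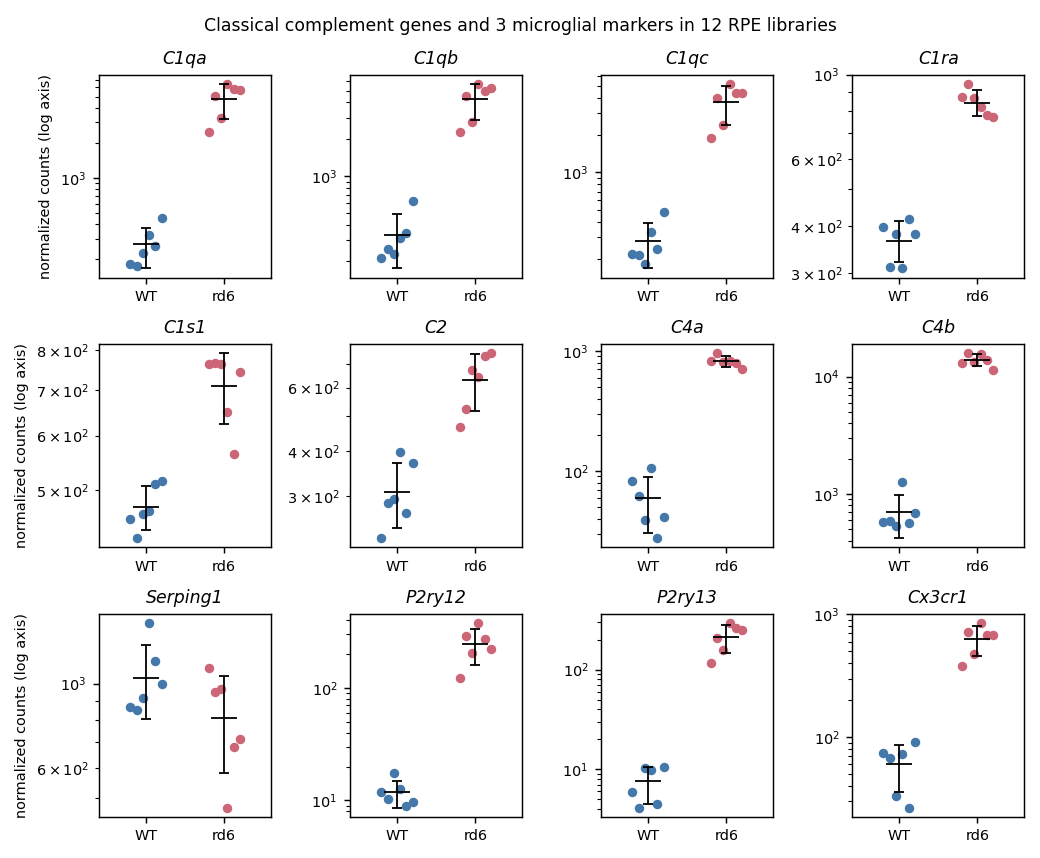
Normalized counts (log axis, scaled to each gene) of the 9 classical pathway genes and of *P2ry12*, *P2ry13* and *Cx3cr1* in the 6 WT (blue) and 6 rd6 (red) libraries, drawn from left to right in the order of their replicate numbers. Points are libraries and bars the mean ± SD. All rd6 points lie above all WT points except for *Serping1*, where WT spans 850 to 1445 and rd6 472 to 1097.

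Per kilobase of exonic sequence, the order of the 9 levels changed between the genotypes. In WT RPE *Serping1* had the highest mean, 446 ± 97.9 normalized counts per kb (SD, n = 6), followed by *C1qb* at 303 ± 142, whose spread overlapped it, and *C1qa* at 260 ± 99.3. *C1s1* (151 ± 11.0), *C1qc* (144 ± 57.3), *C4b* (124 ± 49.5) and *C1ra* (123 ± 15.1) followed, with overlapping spreads except between *C1s1* and *C1ra*, then came *C2* at 79.4 ± 16.3 and *C4a* at 9.60 ± 4.73. In rd6 RPE the C1q chains and C4 led, with *C1qa* at 4603 ± 1514 normalized counts per kb (SD, n = 6), *C1qb* at 3897 ± 1269, *C4b* at 2432 ± 281 and *C1qc* at 1917 ± 660. The spreads of neighbors in this order overlapped. With the 1203 bases of the *C1qc* transcript in place of its 1931 merged exonic bases, *C1qc* was at 3077 ± 1060 and above *C4b* on average. *Serping1*, at 350 ± 99.5, came after them, followed by *C1ra* (283 ± 21.8), *C1s1* (226 ± 26.7), *C2* (163 ± 29.6) and *C4a* (132 ± 12.9), and the spread of *Serping1* overlapped those of *C1ra* and *C1s1*, and that of *C2* overlapped that of *C4a*.

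Subunits of the same complex did not keep their ratio. The ratio of *C1qb* to *C1qa* was 0.947 to 1.44 in WT (median 1.24) and 0.847 to 0.926 in rd6 RPE (median 0.888), a log2 difference of −0.43 (exact permutation test over all divisions of the 12 libraries into 6 and 6, two-sided p = 0.00216, the smallest these can give, and 0.00289 adjusted over 4 ratios). The ratio of *C1qc* to *C1qa* went from 0.805 to 1.22 (median 1.04) in WT to 0.746 to 0.805 (median 0.763) in rd6, a log2 difference of −0.42 with the same exact permutation p. All 6 rd6 libraries thus had relatively more *C1qa* than any WT library. The log2 ratio varied less among rd6 than among WT libraries, with an SD of 0.05 against 0.25 for *C1qb* and 0.04 against 0.22 for *C1qc*. The ratio of *C1s1* to *C1ra* was 1.14 to 1.50 in WT (median 1.29) and 0.719 to 0.961 in rd6 (median 0.841), a log2 difference of −0.63 (exact permutation p = 0.00216, adjusted 0.00289). *C4a* relative to *C4b* was 0.0509 to 0.143 in WT (median 0.0796) and 0.0538 to 0.0630 in rd6 (median 0.0602), which overlapped (log2 difference −0.46, exact permutation p = 0.0541, adjusted 0.0541), and without WT replicate 5 the adjusted p was 0.00649.

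**Figure D2:**
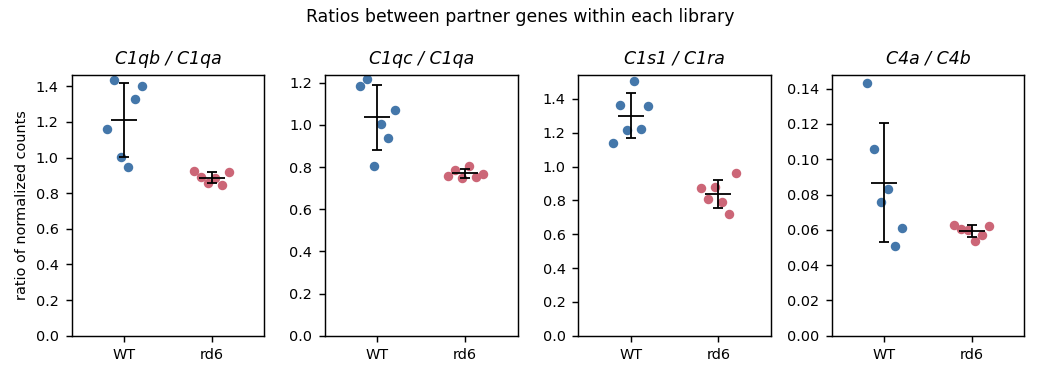
Ratio of normalized counts between genes of the same complex or paralogs within each WT (blue) and rd6 (red) library, on linear axes from 0, with bars for the mean ± SD. The rd6 ratios lie below the WT ratios for *C1qb* to *C1qa*, *C1qc* to *C1qa* and *C1s1* to *C1ra*, and within the WT range of 0.0509 to 0.143 for *C4a* to *C4b*.

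To compare the pathway with microglia, the 3 receptors named above were used as reference. *P2ry12* had normalized counts of 11.8, 10.3, 17.6, 12.6, 8.86 and 9.67 across the WT replicates and 123, 288, 202, 378, 270 and 223 across the rd6 replicates. *P2ry13* had 5.92, 4.13, 10.4, 9.71, 4.43 and 10.6 in WT, near the level of 3 reads, and 116, 205, 156, 294, 264 and 248 in rd6 RPE. *Cx3cr1* had 74.0, 67.1, 33.2, 72.8, 26.6 and 90.9 in WT and 382, 725, 479, 855, 685 and 675 in rd6 RPE. All 3 receptors rose without overlap, with log2 fold changes of 4.23 for *P2ry12* (standard error 0.25, limma q = 1.7e-07), 4.67 for *P2ry13* (standard error 0.29, limma q = 2.5e-07) and 3.44 for *Cx3cr1* (standard error 0.30, limma q = 5.1e-06). The annotation places *Med12l* over both P2ry genes and 9 genes within the bounds of *Cx3cr1*, so that some of their reads are uncertain.

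After subtraction of the mean log2 level of these 3 receptors in the same library, 5 of the 9 genes were no longer called and 4 were lower. *C1qa* differed from the receptors by 0.03 (log2, 95% interval −0.49 to 0.55, limma q = 0.910), *C1qb* by −0.40 (−0.96 to 0.15, q = 0.148 in limma) and *C1qc* by −0.39 (−0.90 to 0.13, q = 0.138 in limma). *C4a* (−0.21, −0.85 to 0.42, limma q = 0.495) and *C4b* (0.25, −0.29 to 0.79, limma q = 0.353) likewise had intervals that included 0. Relative to the receptors *C1ra* (−2.90), *C1s1* (−3.53), *C2* (−3.07) and *Serping1* (−4.49) were lower, as were 99.5% of all genes, since the receptors themselves rose. Neither call was made for 5 of the 9 genes and for 0.507% of all genes, and a higher call for 0 of 9 and 0.0281% of all genes. The result depends on the reference: against 18 other microglia or macrophage markers the same 5 genes were higher, *C4b* by 2.02, *C1qa* by 1.80, *C4a* by 1.56, *C1qc* by 1.39 and *C1qb* by 1.37 on the log2 scale. The share of all genes higher against these 18 was not computed, and the shares above hold for the 3 receptors only. The list of 18 holds *Csf1r*, a macrophage receptor gene at 12921 to 18698 normalized counts in WT RPE with a log2 fold change of 0.12 (limma q = 0.385), and *Mrc1* (−0.14, limma q = 0.644). Its other 16 genes were higher in rd6, from *Trem2* (4.37), *Tyrobp* (3.94), *Ly86* (3.77) and *Gpr34* (3.39) downward, and 0 were lower. Of all genes, 4.69% were higher and 2.12% lower. The median over the 18 was 2.63. Among those called, *Aif1*, *Adgre1* and *Itgam* overlapped between the genotypes, and the call of *Itgam* was lost in edgeR (q = 0.207). With a pseudocount of 10 in place of 1, *C4b* was called higher than the 3 receptors (0.89, limma q = 0.000824), and the values of *C1qb*, *C1qc* and *C4a*, still not called, became positive (0.22, 0.23 and 0.22).

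**Figure D3:**
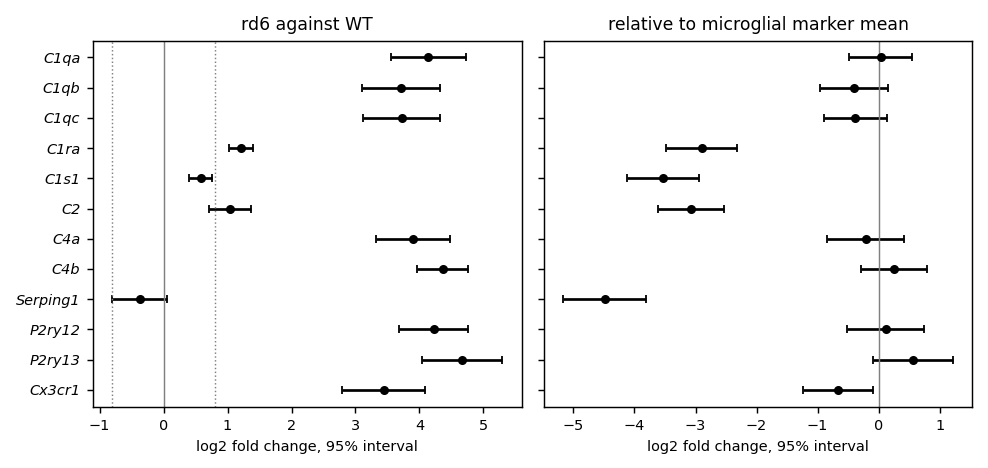
Log2 fold changes (rd6 over WT) and 95% intervals from limma, n = 6 per genotype, for the 9 genes and the 3 microglial receptors, as measured on the left (dotted lines: ± 0.81, the limit for a call) and after subtraction of the mean of the 3 receptors on the right. On the right the C1q and C4 genes lie around 0, from −0.40 for *C1qb* to 0.25 for *C4b*, and *C1ra*, *C1s1*, *C2* and *Serping1* between −4.49 and −2.90.

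Among the 6 rd6 libraries the C1q genes had the highest correlations with the receptors of the 9. The receptor mean, from 7.47 to 8.84 on the log2 scale, had a Pearson r of 0.972 with *C1qa* (exact permutation p = 0.00417 over 720 pairings, Spearman ρ 0.943, exact p = 0.0167), 0.958 with *C1qb* (exact p = 0.00556, ρ 0.829, exact p = 0.0583) and 0.978 with *C1qc* (exact p = 0.00417, ρ 0.943, exact p = 0.0167). Without rd6 replicates 1 and 3, which were farthest from the median of the receptors, r was 0.771, 0.681 and 0.880, over 4 libraries. Of all 17768 genes, 0.129% had a higher r than *C1qa*, 0.298% than *C1qb* and 0.0563% than *C1qc*. After adjustment over all genes none passed (q = 0.949 for each C1q gene), since 6 libraries limit the p that a gene can reach, and 835 genes had an unadjusted p below 0.05. rd6 replicate 1, the lowest in the receptors and in C1q, was among the keratin-rich libraries, and rd6 replicate 5, another of these, was not low.

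For *C4b* r was 0.394 (exact permutation p = 0.424, ρ 0.657, exact p = 0.175), 0.564 without the 2 libraries, and for *C4a* 0.0234 (exact p = 0.974, ρ 0.200, exact p = 0.714). *C2* had r = 0.554 (exact p = 0.235), *C1ra* −0.323 (exact p = 0.540) and *C1s1* −0.561 (exact p = 0.272), and without the 2 libraries −0.099, −0.032 and −0.39, so that the values of *C2* and *C1ra* rest on those libraries. *Serping1* went the opposite way to C1q, with r = −0.845 (exact permutation p = 0.0417, ρ −0.943, exact p = 0.0167) and −0.846 without the 2 libraries, but q over all genes was again 0.949. Whether any 2 of these correlations differ was not tested. In WT RPE, where the receptor mean was 3.51 to 4.49 and rested on few reads, r was 0.430 for *C1qa*, 0.192 for *C1qb*, 0.466 for *C1qc*, 0.509 for *C4b* and 0.0831 for *Serping1*, with exact permutation p from 0.246 to 0.847 for these 5 genes and q of 0.988 or more for all 9. Without WT replicates 2 and 5, over 4 libraries, r was 0.962 for *C1qa*, 0.853 for *C1qb*, 0.916 for *C1qc*, 0.702 for *C4b* and 0.697 for *Serping1*. For the other 4 it went from 0.563 to 0.935 for *C2*, from −0.089 to 0.752 for *C1s1*, from −0.370 to −0.589 for *C1ra* and from 0.566 to 0.034 for *C4a*, so that the WT values depend on those libraries.

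**Figure D4:**
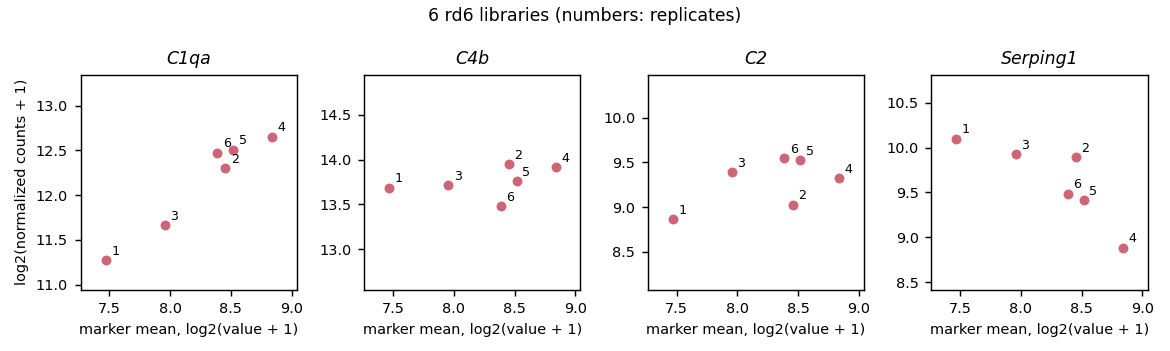
Log2(normalized counts + 1) of *C1qa*, *C4b*, *C2* and *Serping1* against the mean log2 level of *P2ry12*, *P2ry13* and *Cx3cr1* in the 6 rd6 libraries, marked by replicate number, with y axes of equal span. *C1qa* climbs along the receptors (r = 0.972), *C4b* stays within a narrow band (r = 0.394) and *Serping1* is lowest where the receptors are highest (r = −0.845).

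The genes most like each group were found over the 12 libraries after centering each genotype on its mean, among 12874 genes that averaged 100 normalized counts or more, and the correlations are descriptions that share library composition. Nearest to the mean of the 3 C1q chains were *Tyrobp*, the signaling adaptor of myeloid receptors (r = 0.991), *Cd84*, a leukocyte surface receptor (0.986), *Ctss*, the lysosomal protease cathepsin S (0.986), *Cd33*, a sialic acid-binding receptor (0.972), and *Cd53*, a leukocyte tetraspanin (0.968). Nearest to *C4b* were *Nfatc2* (0.960), *Capza1-ps1* (0.935), *Tapbpl* (0.929), *Sowahc* (0.927) and *Hpgds* (0.924). For the mean of *C1ra* and *C1s1* these were *Bhlhe41* (0.951), *Gna11* (0.940), *Gm4788* (0.939), *Alg9* (0.937) and *Mfap5* (0.932). *Serping1* had *Prelp* (0.969), *Fam20a* (0.969), *Fmod* (0.956), *Efna1* (0.953) and *Colec12* (0.951), of which *Prelp* and *Fmod* encode small proteoglycans of the extracellular matrix.

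Around the 9 genes, 47 other genes of the pathway were listed, of which 39 were in the table and 26 were tested. Of the 26, 9 were called higher and 0 lower, with a median log2 fold change of 0.36, where 4.69% of all genes were higher and 2.12% lower. Among the other C1r and C1s genes, *C1rb* (log2 fold change 1.25, limma q = 2.4e-06) and *C1rl* (1.24, limma q = 7.8e-05) rose and *C1s2* (0.45, limma q = 0.277) was not called, and *C1rb* shares most of its sequence with *C1ra*. Of the genes for proteins that C1q recognizes, 2 were tested. *Ighm*, the IgM heavy chain, rose from 40.5 ± 11.8 to 132 ± 39.6 normalized counts (SD, n = 6; log2 fold change 1.66, limma q = 0.000188). *Ptx3*, a pentraxin, was also called, from a median of 5.23 (range 3.11 to 21.4) to a median of 22.5 (range 9.55 to 29.8; log2 fold change 1.40, limma q = 0.0331), but the genotypes overlapped and the call was lost in edgeR (q = 0.0551) and under a replicate block in limma (q = 0.108).

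Downstream of C4 and C2, *C3*, on which all pathways converge, went from 90.1 ± 55.0 in WT to 170 ± 19.0 normalized counts in rd6 (SD, n = 6), a rise of 1.07 on the log2 scale (SE 0.28, limma q = 0.0144). The ranges overlapped because WT replicate 4 had 197. Of the 8 listed genes for C3 and the terminal components, 6 were in the table and 2 were tested, and *C8g* (0.01, limma q = 0.973) was not called. Among 8 tested inhibitors and cofactors that act on C4b or C3b fragments or on the terminal complex, only *Cfi*, which encodes the protease factor I, was called (log2 fold change 6.69). *Clu*, or clusterin, an inhibitor of the terminal complex, had a log2 fold change of 0.60 (limma q = 0.00316) and *Vtn*, or vitronectin, another, had −0.42 (limma q = 0.0175), both under the limit of 0.81. Of 9 tested genes for proteins that bind C1q or take up what it tags, the integrin genes *Itgb2* (2.65) and *Itgax* (2.48) rose. *Itgam* (2.59, limma q = 0.0237), also on the microglia and macrophage list, was called as well, but its WT libraries spanned 6.22 to 308 normalized counts and overlapped the rd6 libraries (110 to 396). Its call was lost in edgeR (q = 0.207), in DESeq2 (q = 0.212) and under a replicate block in limma (q = 0.0517). The other 6, among them *C1qbp* (0.16) and *Calr* (0.00), were not called. For the lectin pathway, which cleaves the same C4 and C2 through MASP proteases, 2 of 9 listed genes were tested and 0 were called (*Masp1*, 0.82, limma q = 0.175, and *Colec12*, −0.38, limma q = 0.108).

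Markers of other cell types that the isolate could hold were called in some lists. Of 6 endothelial markers 3 were higher, against 4.69% of all genes, *Plvap* (log2 fold change 0.93), *Tie1* (0.90) and *Cdh5* (0.82, q = 0.0879 under a replicate block in limma), and the sum of the 6 was 4726 to 8969 normalized counts in WT and 7758 to 17895 in rd6. Of the rod markers, *Nrl* was called lower (−1.10, limma q = 0.0459, lost in edgeR with q = 0.120 and in DESeq2 with q = 0.108, and 0.117 with the block) and 0 were higher. Of 6 markers of Müller glia and astrocytes 0 were called. Of 7 lymphocyte markers 1 was tested and 0 were called, with sums of 21.7 to 49.3 in WT and 25.2 to 81.4 in rd6. Of the 6 keratin-list genes 0 were called. The summed microglia and macrophage list was 16926 to 22672 in WT and 27457 to 40327 in rd6, and the part of any of these cells in the values of the 9 genes was not tested.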

How the data were processed

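RNA-seq libraries (TruSeq Stranded Total RNA, read pairs) from 6 WT and 6 rd6 RPE samples were analysed. The authors used Rsubread for alignment to mm10 and for quantification, and normalized and tested them with DESeq2 (bcl2fastq and FastQC are also named in the submitters' processing notes, without versions). The deposited values are a signal, read counts divided by the size factor of each library. The deposited columns of the authors' own comparison (log2 fold change with its error, Wald statistic, a score, and p-values) were not used. Of 28596 entries, 5 repeats were dropped. All values (100%) were whole multiples of 1 read within 0.0001 reads, so reads were recovered. No pair of libraries was a copy of another (the lowest chi-square per gene in the 66 pairs was 9.45).

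Genes averaging 10 or more (17768) were tested for genotype alone in limma 3.58.1 (R 4.3.3, eBayes with trend), after log2(value + 1). Fold changes are on this scale, which understates those of low genes. Calls need Benjamini-Hochberg q below 0.05 over all genes and a log2 fold change of at least 0.81 in size. edgeR 4.0.16 and DESeq2 1.42.0 on recovered reads were alternatives. Ratios were compared by exact permutation (scipy 1.17.1 and Python 3.11.15). p-values measure the spread between these libraries. Read counts cover counting error only. The scripts were tested on simulated data. Gene bounds and exonic lengths are from GENCODE M21 (28510 of 28591 genes), transcripts were aligned with Biopython 1.88, and promoter windows are from RefSeq.

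The 9 genes, the marker and pathway lists and the tests were chosen with earlier results of these data known. Named are the 9 genes, the 3 receptors, up to 4 called genes of each list, those at 0 in all libraries (there were 0) and the 5 genes most like each group. *Mfrp*, the keratins, *Xist*, *Ddx3y*, *Best1*, *Ttr*, *Csf1r*, *Mrc1*, *Adgre1*, *Aif1* and uncalled genes of the lists (*C1s2*, *C8g*, *Clu*, *Vtn*, *C1qbp*, *Calr*, *Masp1*) were named after their values were seen. Some genes that these rules select are not reported here.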

Additional observations from a re-analysis of the deposited data

Results flagged for a closer look

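Of 32 groups of 6 libraries examined for a library far from the rest, 2 stood out, and chance alone gives about 1 in 20. *C1qb* in WT replicate 6 had 629 normalized counts, against 344 in the nearest WT library, a gap of 0.686 of the range of the group. *C4b* in WT replicate 4 had 1269 normalized counts, against 694 in the nearest WT library, a gap of 0.780 of the range. WT replicate 4 was also the library with the most keratin reads, and the part of that tissue in its *C4b* level was not tested.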

How the results depend on the processing

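Of 650 values recomputed under other settings, 630 kept their direction and their side of the threshold, or stayed within 1.5 times for a count. This held for all 218 fold changes of the 9 genes and for all 144 counts of genes called between the genotypes: 7 of the 9 were higher and 0 lower under every alternative run, among them edgeR, DESeq2, other scalings, other pseudocounts, other filters, each library left out, sex as a term, male libraries only and no keratin-rich libraries (the last 3 chosen after seeing the data). Genes higher among all tested were 614 to 1050 and genes lower 288 to 545. The exceptions concern values relative to microglial receptors and the ratio of *C4a* to *C4b*. The number of the 9 genes higher relative to the receptors was 0, and 1 with a pseudocount of 10. It was 5 with the 18 other microglia or macrophage markers as reference, for which the share of all genes was not computed. There the relative log2 values of *C1qb* (1.37), *C1qc* (1.39) and *C4a* (1.56) turned from negative to positive. With a pseudocount of 10 these 3 values also turned positive (0.22, 0.23 and 0.22) but were not called. The relative value of *C1qa*, near 0, turned negative with male libraries only (−0.0056) and a pseudocount of 0.1 (−0.068), and lay between −0.080 and 0.16 over the libraries left out, uncalled in each. The log2 difference of the ratio of *C4a* to *C4b* passed the threshold with a pseudocount of 10 (−0.66, adjusted exact permutation p = 0.00216), without WT replicate 5 (−0.60, adjusted exact p = 0.00649) and without WT replicate 6 (−0.55, adjusted exact p = 0.0325), with a range of −0.60 to −0.30 over the libraries left out. The causes were not tested.

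The replicate numbers recur in both genotypes but no source ties the animals to each other. Same-numbered libraries correlated in their deviations from the genotype means with r from −0.74 to 0.31, above 0.1 in 1 of 6 pairs, and in 0 of 6 was the same number the best match. Adding the replicate number as a block gave 679 genes higher and 301 lower in rd6, 7 of the 9 genes stayed higher, and *C4b* had q = 1.5e-05 in limma. Of the named genes, *Itgam*, *Ptx3*, *Cdh5* and *Nrl* were not called with the block. Of the 3 receptors, depth limits *P2ry13* the most in WT RPE (4.13 to 10.6 normalized counts), then *P2ry12* (8.86 to 17.6), with *Cx3cr1* at 26.6 to 90.9. Every value relative to their mean carries this limit.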
